A study of Sus scrofa with 180 samples.

Results

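ADIPOQ, PLIN1, LPL, CEBPA and DGAT2 are 5 genes of the fat cell and of lipid storage, and their expression was described here in the Longissimus (LM) and the Semimembranosus (SM) muscle of the pig. The members were every probe that the copies of the study's gene lists used here assign to these symbols, which gave 5 probes, 1 for each gene, of 15198 on the array. The lists were used only as a map from probe to gene, and the copy of the SM list is shortened, so further probes of these genes may not be among them. All 5 were among the 10987 probes kept after the filters on dim and faulty spots. The arrays number 180, with 90 of LM and 90 of SM, and the labels pair them by pig. The pigs were unmodified animals of both sexes, at commercial slaughter age and weight, from an intercross between a Pietrain type sire line and a synthetic sire line with Duroc, Large White and Hampshire founders. They formed 2 half-sib families and carried no mutant allele at the HAL or RN locus. Both muscles were taken from the superficial region with a trocar shortly after slaughter, so a sample held muscle fibres with the vessels, connective tissue and fat cells between them. The animals were related. In the muscle comparison p-values measure the spread between arrays, slides and scan days included, and leave out the pairing. In the permutation tests they treat these pigs as independent.

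Intramuscular fat is stored in adipocytes that lie between the fibre bundles and, to a lesser extent, in droplets inside the fibres. CEBPA is a transcription factor that drives fat cell differentiation, DGAT2 joins the last fatty acid to diacylglycerol to make triglyceride, and PLIN1 coats the lipid droplet of the mature adipocyte and controls access of lipases to it. ADIPOQ encodes adiponectin, a hormone secreted almost solely by adipocytes. LPL, lipoprotein lipase, releases fatty acids from circulating lipoproteins at the vessel wall and is made by muscle fibres as well as by fat cells, so it is the member least tied to adipocytes.

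The sequences below are those printed on the array for the 5 members, 60 bases each, given 5′ to 3′ because each gene was read here by this probe alone. The capitals mark GCCCTA, 6 letters at position 17 of the LPL probe that are taken up again below, and no other member held them.
ADIPOQ: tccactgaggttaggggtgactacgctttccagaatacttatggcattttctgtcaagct
PLIN1: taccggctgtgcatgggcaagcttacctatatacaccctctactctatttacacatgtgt
CEBPA: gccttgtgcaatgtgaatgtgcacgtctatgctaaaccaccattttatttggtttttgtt
DGAT2: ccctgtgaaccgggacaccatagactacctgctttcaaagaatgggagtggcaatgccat
LPL: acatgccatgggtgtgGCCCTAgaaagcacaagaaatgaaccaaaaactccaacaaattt

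Values are log2 processed signals minus the array median. This median was taken on each array over the probes that passed the filter on dim and faulty spots. A value of 0 is thus the signal of the median probe among these, not among all probes. Levels of different probes were not set against each other, because probes bind with unequal strength. Over all 15198 probes, passed or not, the median processed signal of an array lay between 171 and 304 in LM and between 105 and 252 in SM. The median array had 83.4% of its probes clearly above background in LM and 73.4% in SM. No slide and no scan day held both muscles, and the SM arrays were scanned on later days, so these cannot be told apart from the muscle. The version of the software that read the arrays was unbalanced as well. All SM arrays were read with version 9.5.3.1, and LM arrays with 9.5.1.1 or 9.5.3.1. No comparison of the muscles here took this into account.

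ADIPOQ was measured on all 180 arrays. In LM it ran from -2.79 through a median of -0.72 to 2.65, and in SM from -2.20 through 0.45 to 2.83. The muscles overlapped over nearly their whole range, with 84 of 90 LM arrays above the lowest SM array, but 79 of 90 pigs had the higher value in SM. The LM mean was -0.76 ± 0.99 (SD, n = 90) and the SM mean 0.49 ± 0.94 (SD, n = 90), an FC ratio of 2.39 toward SM.

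PLIN1 ran from -4.26 through -2.21 to 0.90 in LM and from -3.64 through -1.07 to 1.44 in SM. It failed the background criterion on 9 LM arrays and 1 SM array. SM had the higher value in 69 of the 80 pigs measured in both, and the FC ratio was 2.18 toward SM, from means of -2.15 ± 0.87 (SD, n = 81) and -1.02 ± 0.95 (SD, n = 89). When the failing spots were kept, the log2 difference of LM minus SM went from -1.13 to -1.27.

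CEBPA ran from -4.52 through -3.09 to -1.18 in LM and from -3.13 through -1.82 to 0.34 in SM. It was below the background criterion on 17 LM arrays and 1 SM array, and SM was higher in 68 of 73 pigs. The means were -3.01 ± 0.64 (SD, n = 73) and -1.74 ± 0.70 (SD, n = 89), an FC ratio of 2.40 toward SM. Keeping the failing spots moved the log2 difference of LM minus SM from -1.26 to -1.48.

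DGAT2 failed the background criterion most often of the 5, on 38 LM arrays and 13 SM arrays, and 1 more SM spot was not uniform. Where measured, it ran from -4.25 through -3.46 to -0.47 in LM and from -3.81 through -2.17 to -0.19 in SM. SM was higher in 42 of 44 pigs with both values, and the FC ratio was 2.34 toward SM, from means of -3.40 ± 0.66 (SD, n = 52) and -2.17 ± 0.73 (SD, n = 76). With the failing spots kept, which restored all pigs, the log2 difference went from -1.23 to -1.62.

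The LPL probe went the other way. It ran from 7.55 through 7.89 to 8.52 in LM and from 6.19 through 6.89 to 7.98 in SM, and only 1 of the 90 SM arrays lay above the lowest LM array. LM was higher than SM in all 83 pigs with both values. The means were 7.92 ± 0.15 (SD, n = 83) and 6.88 ± 0.29 (SD, n = 90), an FC ratio of 2.05 toward LM. The 7 missing LM spots were saturated and not uniform, so the highest LM signals were not read in full.

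**Figure D1:**
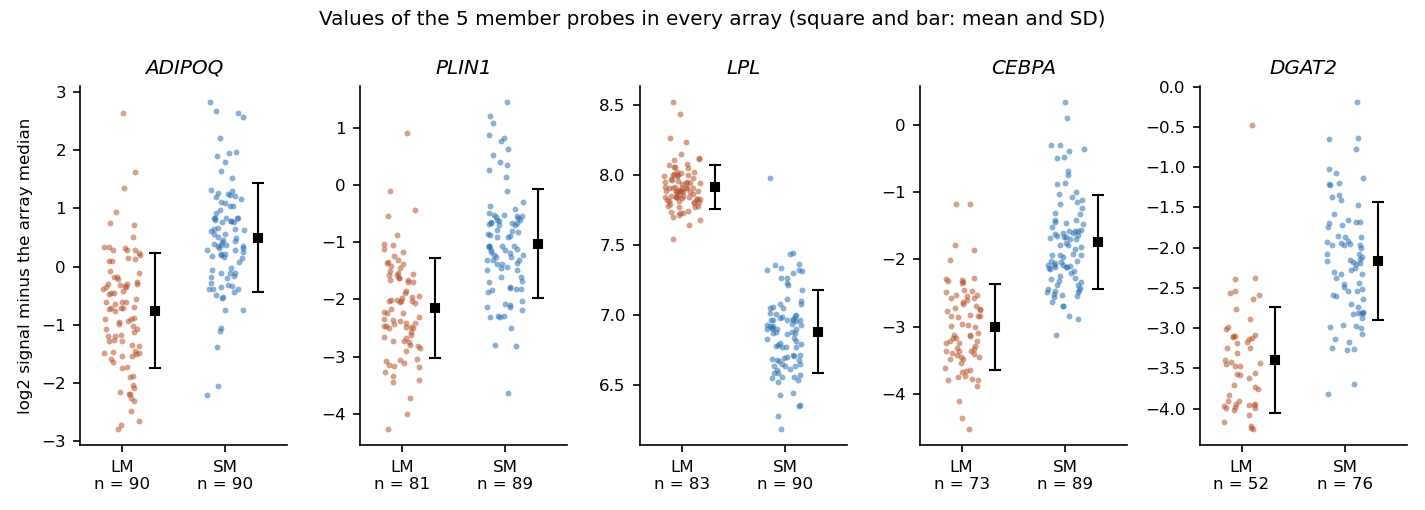
Each point is 1 array, with the log2 signal minus the array median on the vertical axis, a panel for each member with its own scale, LM in brown and SM in blue, and a square with a bar for the mean and SD. ADIPOQ, PLIN1, CEBPA and DGAT2 were higher in SM with broad overlap, and the LPL values of LM, between 7.55 and 8.52, lay above 89 of the 90 SM values.

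By limma with Benjamini-Hochberg adjustment over 10987 probes, the log2 difference of LM minus SM was -1.26 (SE 0.143, adjusted P value 2.42e-15) for ADIPOQ and -1.13 (SE 0.138, adjusted P value 1.84e-13) for PLIN1. It was -1.26 (SE 0.105, adjusted P value 1.27e-23) for CEBPA, -1.23 (SE 0.125, adjusted P value 5.60e-17) for DGAT2 and 1.03 (SE 0.0363, adjusted P value 3.75e-66) for LPL. The background is high. Of all probes kept, 83.5% were called (adjusted P value not above 0.05), 47.7% toward SM and 35.7% toward LM. Those called with an FC ratio of 2 or more were 2.54% toward SM and 6.36% toward LM. The lists that name the probes hold only probes that the study had called on these same arrays, so 5 of 5 called is what the choice of members leads to and its directions are not independent evidence. In bulk muscle, fewer cells of a type and less RNA per cell cannot be told apart.

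The differences between pigs were large for ADIPOQ, PLIN1, CEBPA and DGAT2. The pig with the highest ADIPOQ signal had 43.5 times that of the lowest in LM and 32.7 times in SM. For the others the dimmest spots were missing, so that the ratio is a lower bound. It was at least 35.6 in LM and 33.7 in SM for PLIN1, at least 13.7 and 12.3 for DGAT2, and at least 10.1 and 11.0 for CEBPA. The SD of ADIPOQ was above that of 99.3% of all probes in LM and 99.4% in SM, against a median SD of 0.280 and 0.292 on the log2 scale over all probes. The SDs of PLIN1, CEBPA and DGAT2 were above those of at least 95.1% of the probes in either muscle. The LPL ratio was at least 1.96 in LM, without the 7 saturated spots, and 3.46 in SM. Its SD was above that of 4.62% of the probes in LM, where those missing spots cut the spread at the top, and of 51.0% in SM.

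Members were chosen with earlier results of these data known, though not by their correlations over pigs. These correlations ask whether a pig with more of 1 member also had more of the others. In each muscle 10 pairs were compared, with 100000 permutations of the pigs and adjustment over the 20 tests. PLIN1 followed ADIPOQ closely. Pearson r was 0.963 in LM (95% interval 0.943 to 0.976, 81 pigs) and 0.955 in SM (0.933 to 0.970, 89 pigs), and Spearman rho was 0.956 and 0.932. The permutation p of both was 1e-05, the smallest that 100000 permutations can give, with an adjusted P value of 1.82e-05. In LM, the pig with the highest ADIPOQ value, 2.65, also had the highest PLIN1 value, 0.90. In SM, the pig with the highest ADIPOQ value, 2.83, again had the highest PLIN1 value, 1.44.

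CEBPA rose with ADIPOQ at r = 0.748 in LM (0.625 to 0.834, 73 pigs) and 0.813 in SM (0.727 to 0.873, 89 pigs). It rose with PLIN1 at 0.755 in LM (0.632 to 0.841) and 0.809 in SM (0.722 to 0.870). DGAT2 rose with ADIPOQ at 0.638 in LM (0.442 to 0.776, 52 pigs) and 0.809 in SM (0.714 to 0.875, 76 pigs), and with PLIN1 at 0.625 and 0.763. The lowest of these 6 pairs was CEBPA with DGAT2, at 0.543 in LM (0.309 to 0.715, 49 pigs) and 0.623 in SM (0.463 to 0.744, 76 pigs). All 12 correlations passed, with a largest adjusted permutation P value of 0.000233 for CEBPA with DGAT2 in LM.

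The pairs with DGAT2 in LM rested in part on few pigs. Without the 2 pigs farthest from the median of the first gene, r fell to 0.468 for ADIPOQ with DGAT2, to 0.442 for PLIN1 with DGAT2 and to 0.343 for CEBPA with DGAT2, all still called. The same step left ADIPOQ with PLIN1 at 0.952 in LM and 0.946 in SM. With the mean of its slide taken from each value, ADIPOQ with PLIN1 was 0.948 in LM and 0.946 in SM, and the other 10 correlations of these pairs lay between 0.567 and 0.798. Within the 44 LM arrays read with software version 9.5.1.1 and the 46 read with 9.5.3.1, ADIPOQ with PLIN1 was 0.952 and 0.973. Within single scan days with 6 or more pigs, its lowest r was 0.887 in LM over 6 days and 0.916 in SM over 5 days. On 1 LM day of 9 pigs, DGAT2 ran at -0.18 with ADIPOQ, -0.17 with PLIN1 and -0.09 with CEBPA, and on the other 4 LM days these were positive.

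The LPL probe did not share this pattern, though in LM its spread was small (SD 0.15, with the 7 saturated spots missing). In LM its r was 0.005 with ADIPOQ (-0.211 to 0.221, 83 pigs), -0.014 with PLIN1 (-0.240 to 0.214, 75 pigs), -0.118 with CEBPA (-0.348 to 0.126, 67 pigs) and 0.178 with DGAT2 (-0.112 to 0.440, 48 pigs), none of them called. In SM it was -0.109 with ADIPOQ (-0.309 to 0.10, 90 pigs) and -0.190 with PLIN1 (-0.383 to 0.019, 89 pigs), neither called. LPL ran against CEBPA in SM at r = -0.368 (-0.535 to -0.173, 89 pigs, adjusted permutation P value 0.000646). With quantile normalization this was -0.214 and no longer passed (adjusted P value 0.0658). LPL with DGAT2 in SM was -0.250 (-0.451 to -0.027, 76 pigs, adjusted permutation P value 0.0427), and it missed the threshold as a rank correlation (rho -0.214, adjusted P value 0.0818). With background correction by normexp, LPL ran at -0.448 with CEBPA and -0.336 with DGAT2 in LM, both called. Some LPL pairs in LM also changed sign under alternatives that left the background as it was, and the cause was not tested.

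**Figure D2:**
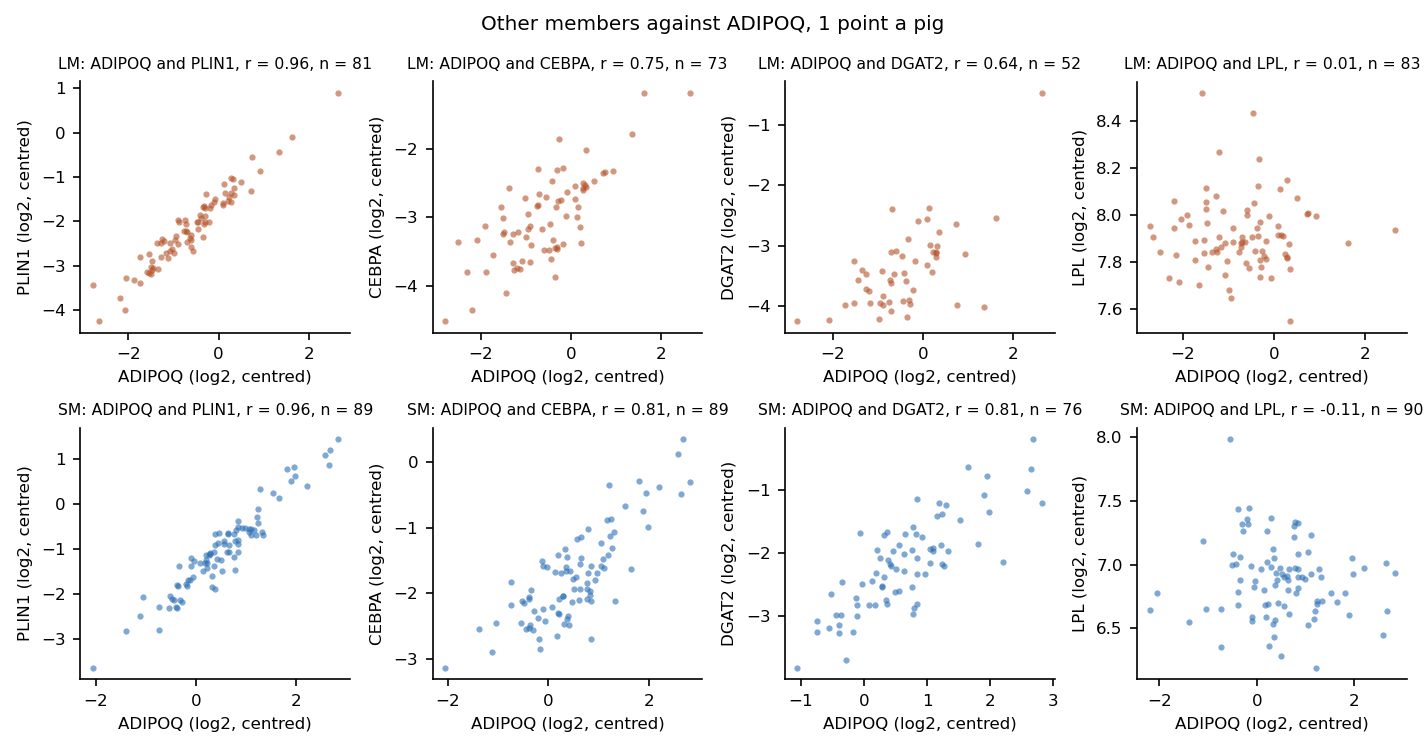
Each point is 1 pig, with the ADIPOQ value on the horizontal axis and that of PLIN1, CEBPA, DGAT2 or LPL on the vertical axis, both as log2 signal minus the array median, LM in the upper row and SM in the lower. PLIN1 lies along a narrow line in both muscles (r = 0.963 and 0.955), and CEBPA and DGAT2 rise with more scatter. LPL, whose spread in LM was small (SD 0.15), shows no slope there (r = 0.005).

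The difference between r in LM and r in SM was tested for each of the 10 pairs by swapping the muscles within pigs, on the pigs with both genes in both muscles. None passed, and the smallest adjusted permutation P value was 0.852, for LPL with DGAT2 (0.210 in LM and -0.142 in SM, 40 pigs, unadjusted p = 0.0852). For ADIPOQ with PLIN1 the difference was 0.011 over 80 pigs.

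Set against all other probes, the coupling of the adipocyte members was rare. Probes were ranked by the mean of their r in LM and in SM with ADIPOQ. Of 10986 probes PLIN1 came 2nd, CEBPA 5th and DGAT2 8th, while LPL came 5839th. Only 22 probes, or 0.20%, had r of 0.5 or more with ADIPOQ in both muscles. The median r over all probes was -0.032 in LM and -0.039 in SM. The 1st place was held by a probe that the lists at hand do not name, with r = 0.984 in LM and 0.981 in SM, and it is shown because it followed ADIPOQ more closely than any named gene.
Unnamed probe: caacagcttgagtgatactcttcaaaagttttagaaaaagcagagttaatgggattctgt

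The named probes most like the members, by the mean of both r and with members left out, were largely shared. ALDOC, a glycolytic aldolase, had r = 0.888 in LM and 0.927 in SM with ADIPOQ. CIDEC, a lipid droplet protein that promotes droplet fusion, had 0.868 and 0.905. The 3rd was RBP4, the plasma carrier of retinol, at 0.602 and 0.882. For PLIN1 the 3 were ALDOC, CIDEC and SDR16C5, a retinol dehydrogenase, the last at 0.729 and 0.844. For DGAT2 they were CIDEC (0.707 and 0.799), ALDOC (0.673 and 0.820) and RBP4 (0.675 and 0.762). CEBPA was nearest to APOE, a lipoprotein component (0.656 and 0.866), then SRPX (0.644 and 0.797) and CIDEC (0.707 and 0.726). These are correlations over 45 or more arrays in each muscle, and the probes share the array and its centring.

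The probes most like that of LPL were not those named above. This likeness is one between probes, and whether the genes behave alike was not tested. VWA3A (0.829 in LM and 0.90 in SM), FUT2, a fucosyltransferase (0.772 and 0.890), and NUDT21, a factor of messenger RNA cleavage (0.752 and 0.908), led the named probes, and the other 17 of the 20 probes most like LPL had no name in the lists. Their sequences are shown because they resemble the LPL probe in part, again with GCCCTA in capitals, and the 1st is the unnamed probe with the highest likeness (0.872 and 0.914).
Unnamed probe most like LPL: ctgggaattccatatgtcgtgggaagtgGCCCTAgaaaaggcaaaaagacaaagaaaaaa
VWA3A: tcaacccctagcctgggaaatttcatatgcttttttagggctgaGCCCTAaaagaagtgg
FUT2: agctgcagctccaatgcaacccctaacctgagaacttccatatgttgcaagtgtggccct
NUDT21: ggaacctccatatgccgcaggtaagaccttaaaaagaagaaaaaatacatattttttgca
LPL: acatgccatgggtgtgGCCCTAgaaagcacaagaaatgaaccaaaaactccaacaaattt

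GCCCTA was held by 130 of the 15198 probes on the array (0.855%), but by 9 of the 20 probes most like LPL. It was held by none of the 20 probes most like ADIPOQ, PLIN1, CEBPA or DGAT2. The letters were picked after these sequences and values had been seen. Among the 96 probes kept that hold GCCCTA as printed, 20 (20.8%) had a mean r of 0.5 or more with LPL, against 219 of 10974 (2.00%) over all probes. Among the 65 that hold only its reverse complement, TAGGGC, there were 0. The study assigned genes to probes by sequence similarity. The likeness in sequence goes beyond these letters. FUT2 lacks them, but its probe ends in gtgtggccct, which the LPL probe also holds. A signal from other transcripts that carry such a stretch was not tested. What is said here of LPL, its direction and its correlations included, holds for this probe and was not shown for the LPL transcript.

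**Figure D3:**
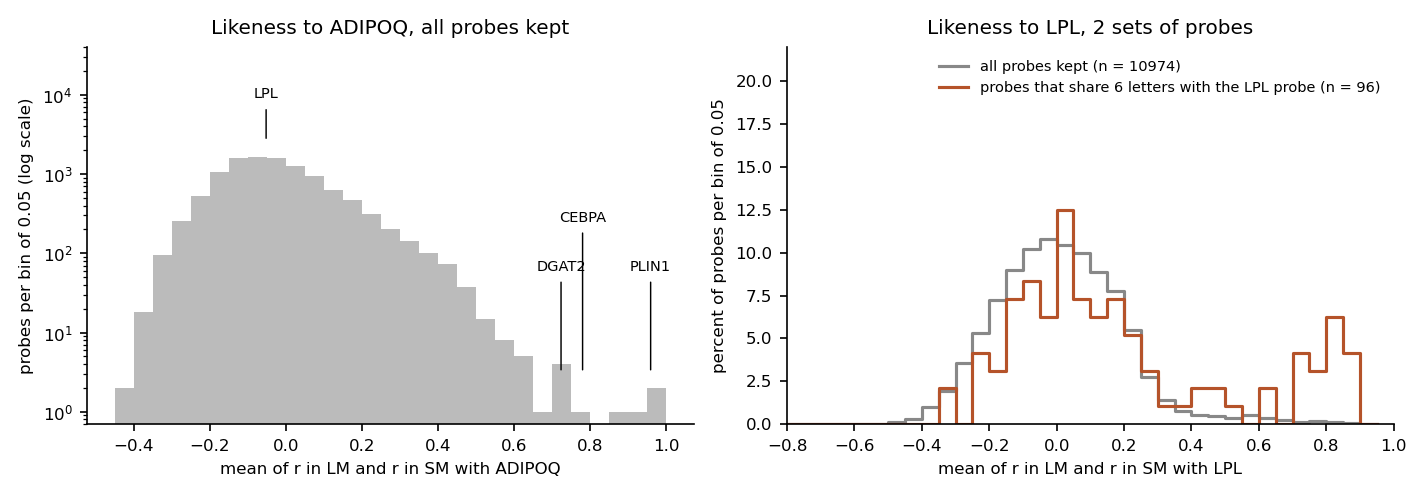
The left panel counts all probes kept, on a log scale, by the mean of their r in LM and SM with ADIPOQ in bins of 0.05, with the other members marked. The right panel gives the percent of probes in each bin of mean r with LPL, for all 10974 probes in grey and in brown for the 96 that share the letters GCCCTA with the LPL probe. PLIN1, CEBPA and DGAT2 lie in the far right tail of the left panel and LPL in its centre, and the brown line has a second group of probes at 0.70 or more.

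The paired design asks whether a pig rich in these transcripts in one muscle is also rich in the other. For ADIPOQ r between LM and SM was -0.006 over 90 pigs (95% interval -0.213 to 0.201). It was 0.093 for PLIN1 (-0.129 to 0.307, 80 pigs), 0.059 for LPL (-0.158 to 0.272, 83 pigs), 0.044 for CEBPA (-0.188 to 0.271, 73 pigs) and 0.087 for DGAT2 (-0.215 to 0.374, 44 pigs). None passed, with adjusted permutation P values of 0.889 or more over the 5 tests, and the intervals leave room for a weak relation. The unadjusted permutation p of rho was lowest for PLIN1 (rho 0.199, p = 0.0768).

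The values of single pigs, picked after they were seen, differed in this. The pig labelled replicate 12 had the highest ADIPOQ value of LM, 2.65, and an SM value of 0.46, close to the SM median. The pig labelled replicate 51 had the highest SM value, 2.83, and an LM value of -2.19, with PLIN1 at 1.44 in SM and -3.72 in LM and CEBPA at -0.30 and -4.36. The pig labelled replicate 8 had the lowest LM value, -2.79, and 1.24 in SM. The pigs labelled replicates 42 and 9, next highest in LM at 1.62 and 1.35, both had SM values above the third quartile of SM, 1.03, with 1.24 in the first of them. Of the 22 pigs with the highest ADIPOQ in each muscle, 6 were the same. Such counts were 10 of the highest 20 for PLIN1, 8 of 21 for LPL, 5 of 18 for CEBPA and 4 of 11 for DGAT2. Each set is about the upper quartile of the pigs with both values. About that same share of it would be common to both muscles if they were unrelated, and these counts were not tested.

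**Figure D4:**
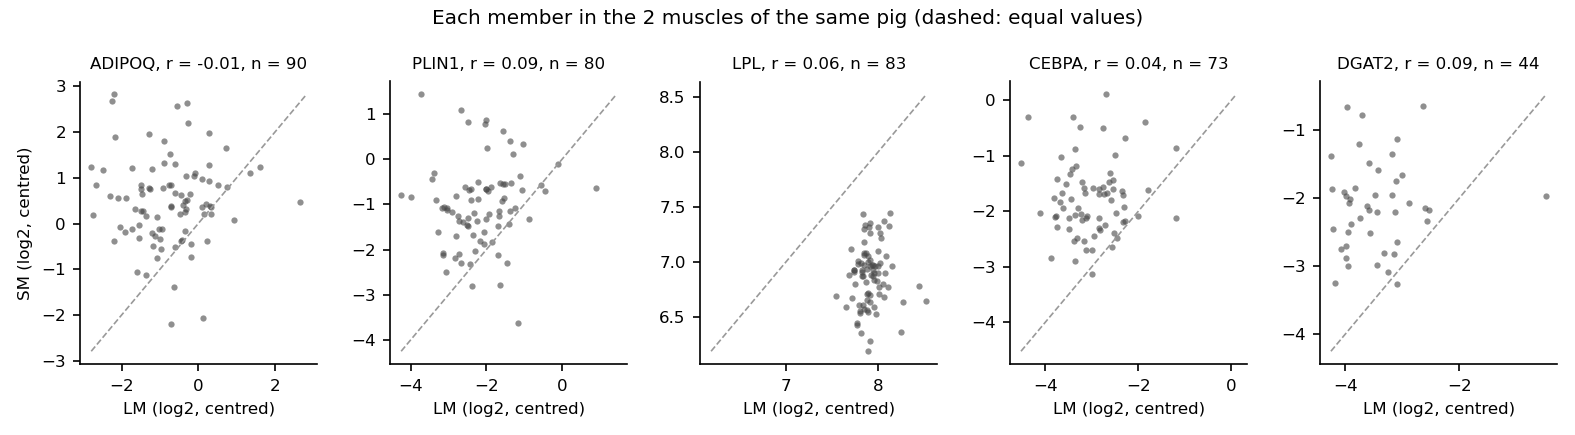
Each point is 1 pig measured in both muscles, with its LM value on the horizontal and its SM value on the vertical axis, as log2 signal minus the array median, and the dashed line marks equal values. The r of the panels lay from -0.006 to 0.093, none called, and most points lie above the line except for LPL, where all 83 lie below it.

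Over the 10868 probes with 40 or more pigs, r between the muscles had a median of 0.066, and 10% lay below -0.093 and 10% above 0.227. The highest was 0.856, and 35 probes reached 0.5. The members lay between the percentiles 27.6 (ADIPOQ) and 58.8 (PLIN1) of this distribution, which is its middle.

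In SM no member passed the F test of limma over 13 slides of 3 or more arrays, where 15% of all probes were called. In LM the test could be made for ADIPOQ, CEBPA and LPL over 18 slides, and none passed (lowest adjusted P value 0.0675, for LPL), where 53.6% of all probes were called. For PLIN1 and DGAT2 some LM slides held no usable spot. A missed F test does not show that slides had no part. The share of the variance of LPL in LM that lay between slides was 50.8%, against a median of 36.1% over all probes. In SM this share was 21.7% for ADIPOQ and 23.9% for CEBPA, against 19.6%. These shares were not corrected for the number of slides, so part of each would arise without a slide effect. An index of probes rich in C in their first bases moved with the muscle contrast, and on the log2 scale it averaged -0.36 over the 90 LM arrays (SD 0.33) and 0.40 over the 90 SM arrays (SD 0.31). With it as a covariate, the log2 difference of LM minus SM was -1.55 for ADIPOQ, -1.24 for PLIN1, -1.41 for CEBPA, -1.25 for DGAT2 and 1.11 for LPL, all still called. Within a muscle, the index correlated at 0.567 with LPL in LM and at -0.14 or nearer 0 with the other members in either muscle. Taking it out left LPL with ADIPOQ, PLIN1, CEBPA and DGAT2 uncalled in LM.

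Other genes of lipid handling were taken from a list of 72, of which the study's lists name 26 with 29 probes. By limma over all probes, 25 of the 29 probes were higher in SM, 3 were higher in LM and 1 was not called, against 47.7% and 35.7% of all probes. These probes too were named only where the study had called them, and the median log2 difference was -0.49, against -0.07 over all probes. Among genes of uptake from the vessel, both ANGPTL4 probes, an inhibitor of LPL, were higher in SM (-0.74 and -0.69), as were LMF1, which LPL needs to mature (-0.59), APOE (-0.73) and FABP5, a fatty acid carrier (-0.32). The fatty acid transporter CD36 was higher in LM with both probes (0.24 and 0.17).

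In fatty acid synthesis SCD, the stearoyl-CoA desaturase (-0.74), the elongase ELOVL5 (-0.67), ACSL1 (-0.31) and ACLY (-0.30) were higher in SM, and FADS2 was not called (0.06). In triglyceride synthesis GPD1, which supplies the glycerol backbone (-0.57), AGPAT1 (-0.53) and FITM1 (-0.36) were higher in SM. All 4 probes of the lipid droplet coat were higher in SM. CIDEC led them, with -0.85 ± 0.86 (SD) in LM and 0.38 ± 0.77 (SD) in SM, a difference of -1.23, and PLIN2 (-0.43 and -0.36) and PLIN3 (-0.39) followed. The lipases of stored lipid were higher in SM as well, with LIPA of the lysosome at -1.04, MGLL at -0.76 and PNPLA2 at -0.63. Of the regulators, PPARA (-0.46) and PPARD (-0.32) were higher in SM and EBF2 in LM (0.12). The adipokine CFD (-0.49), the adiponectin receptors ADIPOR2 (-0.63) and CDH13 (-0.49) and the glucose transporter SLC2A4 (-0.42) were higher in SM.

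**Figure D5:**
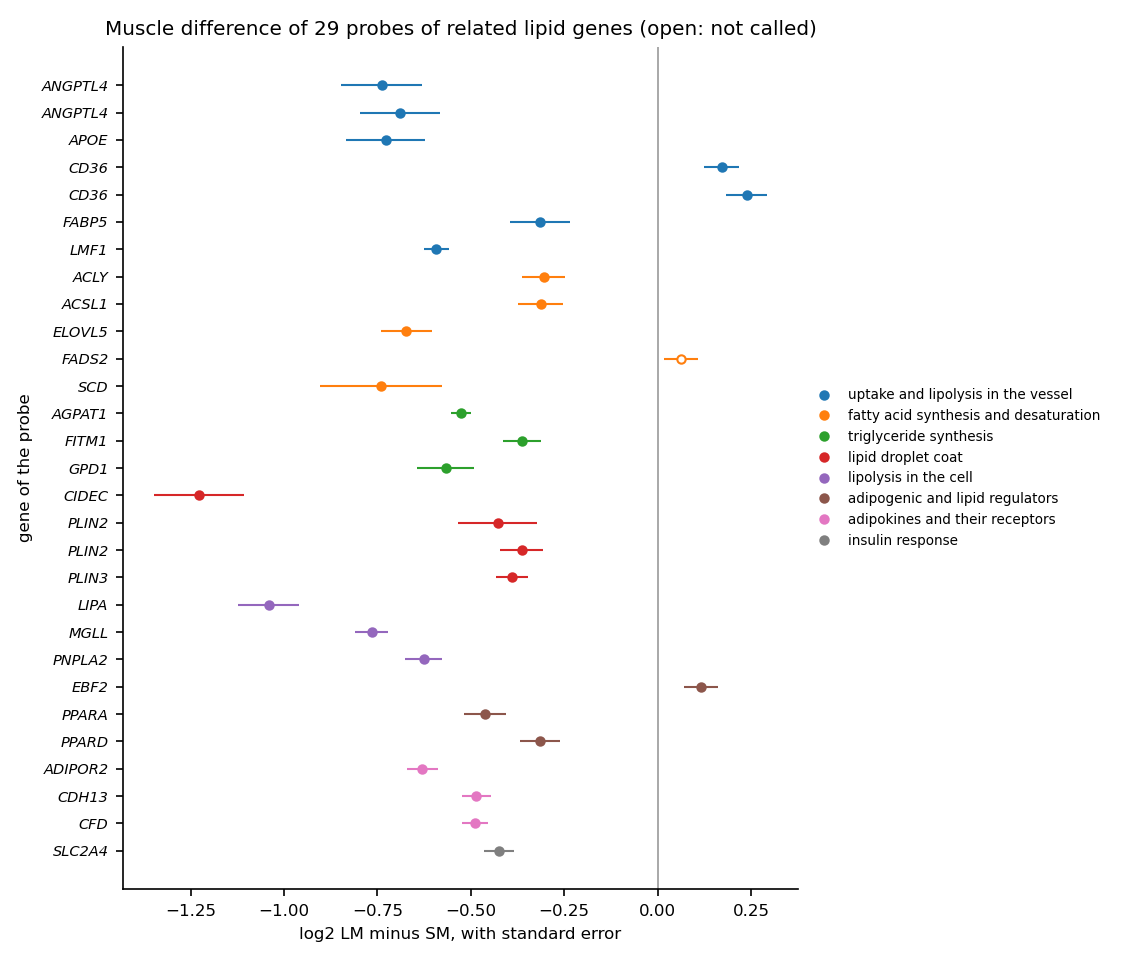
Each point is 1 of 29 probes of related lipid genes, with the log2 difference of LM minus SM and its standard error on the horizontal axis and colours for the roles. Of these probes 25 lie left of 0 and were called higher in SM, led by CIDEC at -1.23, and CD36 and EBF2 were called to the right of it.

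Over pigs, 3 of these 29 probes, CIDEC, APOE (0.586 in LM and 0.793 in SM) and ELOVL5 (0.560 and 0.714), had r of 0.5 or more with ADIPOQ in both muscles, beside the 22 of 10986 among all probes. LIPA had the largest muscle difference after CIDEC, and its r with ADIPOQ was 0.208 and 0.493. PNPLA2, PLIN3 and PPARA ran at -0.106, -0.126 and -0.010 in LM and at -0.118, -0.021 and -0.408 in SM. SLC2A4, which the fibres also make, ran at -0.352 and -0.113.

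The adipocyte marker list of 10 genes had 4 non-member genes named, ADIPOR2, CFD, CIDEC and PNPLA2, all higher in SM. Its summed level, as the mean of values centred on each probe, ran from -0.94 to 0.45 in LM and from -0.07 to 1.23 in SM, and its r with ADIPOQ was 0.813 in LM and 0.764 in SM. CIDEC carries much of this, since ADIPOR2 and PNPLA2 ran at 0.223 and -0.106 with ADIPOQ in LM. The markers of every list were named only where the study had called them on these same arrays. That they were called here follows from this choice, and their directions are not independent evidence. Beside the marker counts that follow, 47.7% of all probes were called toward SM and 35.7% toward LM. The 4 endothelial probes (CDH5, CLDN5, VWF) were all higher in SM, from -1.10 to 0.26 in LM and from -0.45 to 1.25 in SM, and ran with ADIPOQ at 0.094 in LM and 0.433 in SM. The 6 smooth muscle probes were all higher in SM, from -1.14 to 0.30 and from -0.27 to 1.42, with r of 0.155 and 0.482. The 3 fibroblast probes (COL1A2, LUM) were higher in SM, from -1.49 to 0.79 and from -1.27 to 1.38, with r of 0.376 and 0.577. Of 3 macrophage probes 2 were higher in SM and 1 in LM, with r of -0.041 and 0.191. Of the fibre markers, the 3 slow fibre probes (MB, MYL2, TNNI1) were higher in SM, from -1.01 to 0.48 in LM and from -1.08 to 0.79 in SM, and ran with ADIPOQ at -0.064 and -0.224. Of the 3 fast fibre probes (MYH1, MYL1, PVALB) 2 were higher in SM and 1 in LM, from -1.03 to 0.64 and from -1.21 to 0.81, with r of -0.119 and 0.318. The part of these cell types in the correlations of the members was not tested, nor was the difference of these r between the muscles.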

How the data were processed

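Each pig gave 1 single-colour (Cy3) Agilent array of LM and 1 of SM. The deposited scanner files hold a processed signal intensity for each spot, corrected by the authors' software for background and spatial trends. The authors' value table is on the natural log scale, each value the ln of that intensity minus a constant of its array, and served as an alternative. For arrays, precision is limited by the number of usable spots.

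Dim, non-uniform or saturated spots became missing values, and probes with over 50% of them in a muscle were dropped. Among the 11000 probes left by this rule, 2.73% of the values were such spots. The log2 intensities were centred on the median of the probes left on each array. Values beyond 3 SD were then removed, after the methods of the paper with log2 for ln. Muscles were compared over all 180 arrays with limma 3.58.1 (lmFit, eBayes; R 4.3.3, statmod 1.5.0), with muscle as the only term, because sex, slaughter and hybridization batch and weight are not in the labels. Benjamini-Hochberg adjusted P values up to 0.05 were called. On simulated data with 10000 probes, 99.5% of 200 changed probes were called, and 5.24% of the calls fell on unchanged probes. The simulated noise was independent, scaled down from the SDs of real probes, and had no slides, scan days or pigs. It checks the code and not the design. Correlations used NumPy 2.4.6 in Python 3.11.15, with two-sided permutation tests and Fisher z intervals.

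Replicate numbers mark the pig by the labels, and 39 of 90 muscle pairs correlated over 0.1 across probes. The median r was 0.080 within a pig and -0.00949 between different pigs, and 4 of 90 pigs had their own pair as the highest. Named genes were the members, every probe of the related and marker lists (an item of the first is not reported here) and, for each member, the 3 most like named probes. Members and lists were chosen with earlier results of these data known. The copy of the SM list used here is shortened. The authors' own fold changes and p values were not used. Alternatives were other centrings, quantile normalization, normexp (offset 50), other spot filters, blocks for pig, slide or scan day, slide or day means taken out, ranks, the authors' table, and an index of C-rich probes, the mean of probes with at least 8 C among bases 1 to 15 minus that of probes with at most 2.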

Additional observations from a re-analysis of the deposited data

How the results depend on the processing

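All 5 members kept the direction and the call of their muscle difference under all 14 alternatives, from -1.66 to -1.02 for ADIPOQ, -1.57 to -0.76 for PLIN1, -1.55 to -0.83 for CEBPA, -1.67 to -0.80 for DGAT2 and 0.92 to 1.11 for LPL. With the pig as a replicate block the values were -1.26, -1.12, -1.24, -1.34 and 1.04, and 9159 probes were called, against 9169 without the block. This block changed no call of a member. With scan day as a random block, the adjusted P values of limma were 5.31e-07 for ADIPOQ, 5.76e-06 for PLIN1, 1.23e-11 for CEBPA, 2.73e-09 for DGAT2 and 8.06e-38 for LPL. These were larger than those of the main fit. In the deposited table, which holds 6903 probes, 6027 were called, 3162 of them toward SM. Centring on the median of passing spots or over all probes was added after the data were examined. All 12 correlations among ADIPOQ, PLIN1, CEBPA and DGAT2 kept their sign and call under every alternative run for them, and ADIPOQ with PLIN1 lay between 0.924 and 0.973.

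The pairs with LPL did not. In LM, ADIPOQ with LPL was -0.050 with normexp and -0.056 within software version 9.5.1.1. PLIN1 with LPL was 0.00845 as rho, 0.015 with the 75th percentile, 0.00868 with quantile normalization, 0.019 with failing spots kept, 0.068 without scan day means and 0.023 without the index of C-rich probes. LPL with CEBPA was 0.147 without slide means, 0.037 without scan day means and 0.019 within version 9.5.3.1, and -0.448 and called with normexp. LPL with DGAT2 was -0.336 with normexp, where it was called, and -0.051 with failing spots kept. In SM, ADIPOQ with LPL was 0.048 with quantile normalization, PLIN1 with LPL was -0.322 and called with normexp, and LPL with CEBPA was -0.214 and not called with quantile normalization. LPL with DGAT2 in SM lost its call as rho (-0.214), without the 2 farthest samples (-0.198), with the 75th percentile (-0.216), with quantile normalization (-0.185), with failing spots kept (-0.147) and without scan day means (-0.241). The cause was not tested.

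Between the muscles no r was called under any alternative, though signs changed. ADIPOQ was 0.061 as rho, 0.023 with normexp, 0.012 without slide means, 0.00707 without scan day means and 0.00312 without the index. LPL was -0.018 with normexp, -0.061 without scan day means and -0.025 without the index. CEBPA was -0.084 without slide means and -0.069 without scan day means, and DGAT2 was -0.086 with failing spots kept. Values also rose, for DGAT2 to 0.312 without slide means, 0.244 with normexp and 0.222 without scan day means, and for PLIN1 to 0.182 with normexp. The difference of r between the muscles for CEBPA with DGAT2 was -0.225 with failing spots kept and -0.016 without the index, neither called. Dim spots limit DGAT2 and CEBPA in LM, and saturated spots limit LPL there.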
